A study of Caenorhabditis elegans with 2 samples.

Results

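The mir-51 family of Caenorhabditis elegans consists of the microRNA genes mir-51, mir-52, mir-53, mir-54, mir-55 and mir-56, and the peaks of tagged HMG-4 at these genes were examined in a chromatin immunoprecipitation and sequencing (ChIP-seq) experiment on early embryos. The 6 genes were chosen by name, with the strength of their peaks already known, and all peaks whose nearest edge lay within 2 kb of an annotated precursor were taken. They are 6 of 261 annotated microRNA genes and of 46890 annotated nuclear genes. The embryos came from 1 strain, OP660, which carries the unc-119(tm4063) mutation and the transgene wgIs660, in which hmg-4::TY1::EGFP::3xFLAG is joined with unc-119(+), and were of mixed sex, early stage (0 hours) and collected by egg bleaching. Chromatin was sonicated to 200 to 800 bp and precipitated with an antibody against GFP (another label field gives hmg-4 for the antibody), so the profile is that of the tagged protein, in whole embryos with their cell types mixed. The 2 biological replicates form 1 group, with no other genotype or stage, so values are compared between replicates and between loci. The sources used here do not give the copy number of the transgene or whether the strain still makes untagged HMG-4.

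MicroRNAs are cut from hairpin precursors, loaded into an Argonaute protein and guided to messenger RNAs mainly by their seed, the bases near the 5′ end. The mir-51 family is needed redundantly in worm embryos, where its loss is known to cause lethality and detachment of the pharynx, and its seed is related to that of the vertebrate miR-99 and miR-100 family. HMG-4 is a worm homolog of SSRP1, a subunit of the histone chaperone FACT, which takes nucleosomes apart and reassembles them as RNA polymerase passes.

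The mature sequences are shown first because the shared seed is what makes the genes a family. They are given 5′ to 3′ from the RefSeq annotation of WBcel235, with bases 2 to 8 in capitals.
mir-51: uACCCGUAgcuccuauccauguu
mir-52: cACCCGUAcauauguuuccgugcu
mir-53: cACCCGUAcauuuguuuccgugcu
mir-54: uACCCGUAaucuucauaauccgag
mir-55: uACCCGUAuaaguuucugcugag
mir-56: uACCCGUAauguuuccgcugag
Of the 458 mature microRNAs annotated in RefSeq, 6 have ACCCGUA at bases 2 to 8, and all 6 are these. The sequences differ outside the seed, with 9 to 23 identical bases over the 15 pairs. The closest pair was mir-52 and mir-53, with 23 of 24 bases identical.

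The arm of the hairpin that carries the seed differs between the chromosomes. In mir-51, mir-52 and mir-53, on chromosome IV, the seed-bearing strand is on the 5′ arm of the precursor, and in mir-54, mir-55 and mir-56, on chromosome X, it is on the 3′ arm. The 3 precursors from X are printed to show this, with the mature sequence in capitals.
mir-54 precursor: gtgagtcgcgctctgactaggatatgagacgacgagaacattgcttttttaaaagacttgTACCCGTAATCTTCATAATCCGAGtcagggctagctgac
mir-55 precursor: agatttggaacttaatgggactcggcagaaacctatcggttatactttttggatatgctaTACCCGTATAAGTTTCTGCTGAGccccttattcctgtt
mir-56 precursor: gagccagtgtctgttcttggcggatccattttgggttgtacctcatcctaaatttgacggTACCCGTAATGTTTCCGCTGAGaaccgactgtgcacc

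The 6 genes lie at 3 loci, given on ce11 (WBcel235). On chromosome IV, mir-51 (WBGene00003279) is at 11026013 to 11026112 and mir-53 (WBGene00003281) at 11027593 to 11027691, both on the minus strand and 1480 bp apart. The gene mir-52 (WBGene00003280) is alone on the same chromosome at 14034008 to 14034107, on the plus strand and 3006316 bp from mir-53. On X, mir-56 (WBGene00003284) at 13144691 to 13144787, mir-55 (WBGene00003283) at 13144827 to 13144924 and mir-54 (WBGene00003282) at 13144996 to 13145094 follow each other on the minus strand within 404 bp. All 3 genes on X lie in a 9158-bp intron of the protein-coding gene F09A5.3, which is on the opposite strand, and a further annotated microRNA gene, mir-55b, overlaps mir-55 in antisense. The annotated 5′ ends are those of precursors and not of transcription starts.

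The deposited values are peaks, each with a signal value given by the authors' peak caller, in 4 lists. Replicate 1, replicate 2 and the pooled data have 30000 peaks each, and the list passing an irreproducible discovery rate (IDR) threshold has 2137, which were the 2137 strongest pooled peaks. Signal values are in the caller's own unit and a pooled value is close to the sum of the replicates' values, so ranks within a list are given beside them. The lists do not hold a read depth, which is therefore unknown, and no interval for counting error can be derived.

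All 6 genes had an IDR peak within 2 kb, and all 6 had one in the list of each replicate. This count describes what the genes were chosen for and was not tested. Among the 255 other microRNA genes, 59 (23.1%) had an IDR peak within 2 kb, as did 4874 (10.4%) of all annotated genes. In the longer lists of 30000 peaks, presence of a peak distinguishes little. Among the other microRNA genes, 56.9% had a peak in replicate 1, 75.3% in replicate 2 and 64.7% in the pooled list, and among all annotated genes the shares were 40.4%, 56.9% and 44.4%. Among protein-coding genes, 13.3% had an IDR peak within 2 kb, and 57.4%, 73.2% and 61.7% had a peak in replicate 1, replicate 2 and the pooled list. The family's windows held 8 IDR entries in 7 intervals, since the mir-52 interval is listed with 2 summits. The replicates' lists had 10 entries there in replicate 1 and 14 in replicate 2, and the pooled list had 13.

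**Figure D1:**
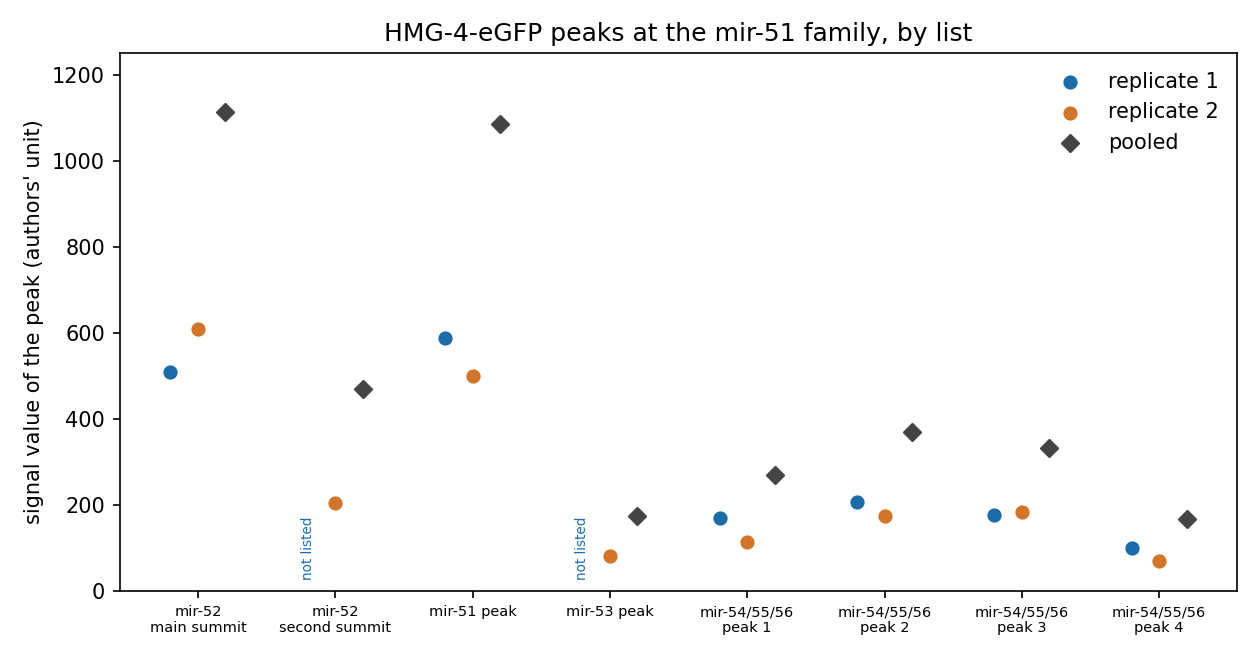
Signal value (vertical axis, authors' unit) of the 8 IDR entries at the mir-51 family in replicate 1, replicate 2 and the pooled list. Each point is 1 peak in 1 list, with no error bar, and the peaks at mir-54, mir-55 and mir-56 are numbered 1 to 4 from downstream to upstream. The mir-52 main summit and the mir-51 peak reach 1112 and 1086 in the pooled list, and replicate 1 has no separate entry for the weaker mir-52 summit or the mir-53 peak.

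The strongest peak of the family covered mir-52. It spanned chromosome IV 14033632 to 14034553, and its main summit, at 14034087, lay inside the precursor, 79 bp from its 5′ end. Its signal value was 509 in replicate 1, 607 in replicate 2 and 1112 in the pooled list. Among 30000 peaks each, these values ranked 5 in replicate 1, 1 in replicate 2 and 3 among the pooled peaks. The mean over replicates was 558 ± 69.4 (SD, n = 2), and the replicates' summits, at 14034092 and 14034080, were 5 and 7 bp from the pooled one. At 922 bp this was also the widest IDR interval, since the 2 of 2137 entries that are at least as wide are its own 2 summits. The weaker summit of the same interval, at 14034293 and downstream of the precursor, had 203 in replicate 2 (rank 113) and 469 in the pooled list (rank 68). Replicate 1 listed a single summit over the interval, so the weaker one has a value in 1 replicate only.

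The next strongest peak covered mir-51. It spanned chromosome IV 11025789 to 11026415, 627 bp, with the summit at 11026143, 31 bp upstream of the precursor. Its signal value was 588 in replicate 1, 499 in replicate 2 and 1086 in the pooled list, at ranks 3, 5 and 4. The mean over replicates was 543 ± 62.7 (SD, n = 2). The summit was at 11026131 in replicate 1, upstream of the precursor, and at 11026101 in replicate 2, inside it. Between mir-51 and mir-52 the order changed with the replicate, mir-51 being higher in replicate 1 and mir-52 in replicate 2, so these peaks did not differ beyond their spread.

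The gene mir-53, whose mature sequence is nearly that of mir-52, had a much weaker peak of its own. This peak, at chromosome IV 11027483 to 11027922 with the summit at 11027703, 12 bp upstream of the precursor, had a pooled signal value of 173 (rank 1098). Replicate 2 listed it with 79.3 (rank 1320), and replicate 1 listed no peak there. The strongest peak within 2 kb of mir-53 was therefore the one at mir-51, which both genes share. With a 1-kb window, mir-53 had no peak in replicate 1, and 5 of the 6 genes had one in both replicates.

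The windows of these 3 peaks are printed because they show where the summits fall relative to the precursors. Each is 300 bases around the summit, on the strand of the microRNA gene, with the precursor in capitals. The mir-51 window is chrIV:11025993-11026292 on the minus strand, the mir-52 window chrIV:14033937-14034236 on the plus strand and the mir-53 window chrIV:11027553-11027852 on the minus strand.
mir-51 peak: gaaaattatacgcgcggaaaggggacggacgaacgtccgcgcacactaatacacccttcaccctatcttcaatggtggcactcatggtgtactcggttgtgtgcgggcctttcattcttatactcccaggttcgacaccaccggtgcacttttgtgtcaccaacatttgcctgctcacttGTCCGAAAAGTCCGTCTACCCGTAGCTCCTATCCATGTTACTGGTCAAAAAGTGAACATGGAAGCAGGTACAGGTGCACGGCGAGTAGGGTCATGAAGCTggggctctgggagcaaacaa
mir-52 main summit: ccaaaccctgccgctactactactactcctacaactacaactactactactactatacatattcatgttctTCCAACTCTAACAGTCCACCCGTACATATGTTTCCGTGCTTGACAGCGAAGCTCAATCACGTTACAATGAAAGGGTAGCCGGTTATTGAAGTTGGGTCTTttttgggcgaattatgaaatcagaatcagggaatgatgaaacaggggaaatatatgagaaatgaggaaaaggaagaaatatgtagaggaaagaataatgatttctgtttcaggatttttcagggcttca
mir-53 peak: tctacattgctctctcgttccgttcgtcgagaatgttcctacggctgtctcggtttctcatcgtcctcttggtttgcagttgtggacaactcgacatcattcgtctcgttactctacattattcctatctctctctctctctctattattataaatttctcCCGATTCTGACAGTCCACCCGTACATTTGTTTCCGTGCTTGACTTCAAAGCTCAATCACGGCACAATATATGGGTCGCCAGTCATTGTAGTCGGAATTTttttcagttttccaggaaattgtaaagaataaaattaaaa

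The locus of mir-54, mir-55 and mir-56 had a different form, with 4 separate IDR peaks in place of a dominant one. All 4 lay within 2 kb of each of the 3 genes, so they cannot be divided among them. Relative to the strand of the genes, the most upstream peak had its summit at X 13146244, and its signal value was 98.2 in replicate 1, 68.4 in replicate 2 and 165 in the pooled list (rank 1224). The next, with its summit at 13145373, upstream of mir-54, had 175 in replicate 1, 183 in replicate 2 and 331 in the pooled list (rank 219).

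The strongest of the 4, at X 13144208 to 13144788, covered the mir-56 precursor in the pooled list. Its pooled summit was 331 bp downstream of the precursor 5′ end. The matched replicate 1 peak overlapped only part of the precursor, which a weaker entry with 49.3 covered. In replicate 2 the matched peak ended 122 bp from the precursor. These matched peaks had 206 in replicate 1 (rank 142) and 173 in replicate 2 (rank 183), and the pooled value was 368 (rank 151). The most downstream, with its summit at 13143392, had 168 in replicate 1, 113 in replicate 2 and 268 in the pooled list (rank 394). In both replicates the most upstream peak was the weakest of the 4. The strongest was the one partly overlapping mir-56 in replicate 1 and the one upstream of mir-54 in replicate 2. The order of these neighbours thus changed with the replicate.

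The 4 IDR summits on X were about as far from each other in both replicates. From downstream to upstream, the pooled summits were 1064, 917 and 871 bp apart, those of replicate 1 were 1052, 898 and 876 bp apart, and those of replicate 2 were 1070, 828 and 951 bp apart. These distances leave out weaker summits between them that were not matched to an IDR summit, namely 1 in each list, with a signal value of 49.3 in replicate 1, 89.2 in replicate 2 and 50.6 in the pooled list. Over the whole IDR list, 254 of 2131 neighbouring summits (11.9%) were at most 1500 bp apart. Runs of at least 4 IDR summits with no larger gap occurred 10 times in the genome, and 1 of them was on X, at this locus. All 4 summits lay in the F09A5.3 intron and none in an exon of that gene.

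The locus also defines the edge of the window. The farthest pooled peak inside it, 1987 bp away, had a value of 92.1 (rank 5077), and the nearest outside, 2899 bp away, had 120 (rank 2596). The peak outside covers the annotated 5′ end of F09A5.3. At the loci on chromosome IV the nearest pooled peak outside was 27804 bp from mir-52 and 8796 bp from mir-51 and mir-53, with values of 68.1 and 65.9.

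**Figure D2:**
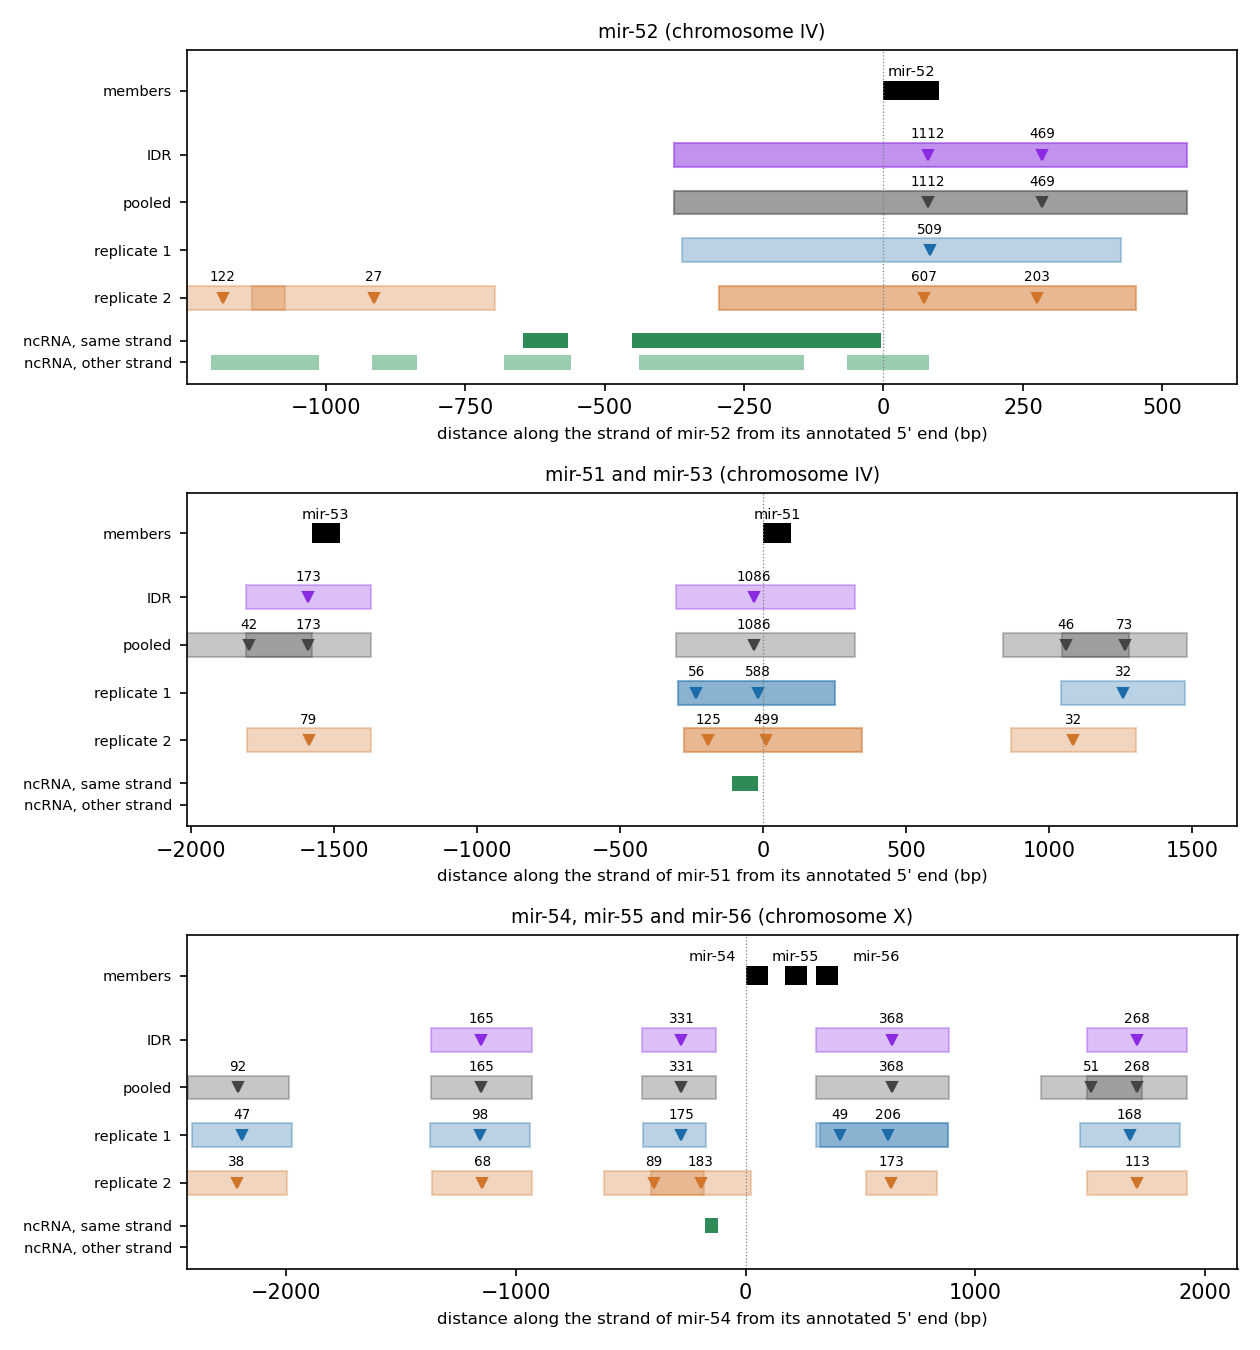
Maps of the 3 loci, drawn to scale as distance in bp from the annotated 5′ end of mir-52, mir-51 or mir-54, along that gene's strand (negative is upstream). Shaded bars are peak intervals in each list, triangles are summits with their signal values, black boxes are precursors and green boxes are other annotated non-coding RNA genes. Single dominant peaks lie at mir-52 and mir-51, whereas the summits of 4 IDR peaks lie on both sides of mir-54, mir-55 and mir-56.

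Over the loci, the strongest value at mir-52 was 2.48 times that of the X locus in replicate 1, 3.32 times in replicate 2 and 3.02 times in the pooled list. For mir-51 and mir-53 these ratios were 2.86, 2.73 and 2.95. Both loci on chromosome IV were thus above the X locus in each replicate. The strongest values of the X locus averaged 194 ± 16.1 (SD, n = 2), but they belong to a different peak in each replicate. Matched between replicates, the peak with its pooled summit at 13144456 averaged 189 ± 22.9 (SD, n = 2). The one at 13145373 averaged 179 ± 5.52 (SD, n = 2). Against the median IDR peak, with a signal value of 176, the strongest pooled values were 6.32 times as high at mir-52, 6.18 times at mir-51 and mir-53, and 2.09 times at mir-54, mir-55 and mir-56.

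The replicates gave similar values at the family's strong peaks. The replicate 1 over replicate 2 ratio was 0.838 at the mir-52 main summit, 1.18 at mir-51, and between 0.957 and 1.48 at the 4 peaks on X. Over the 1938 IDR entries with a peak in both replicates, the median ratio was 1.22, with 5% below 0.621 and 5% above 2.36. The pooled value was close to the sum of the replicates' values, at 0.9996 of it for mir-51 and 0.996 for the mir-52 main summit. At mir-53, where replicate 1 listed no peak, the pooled value exceeded that of replicate 2 by 93.7.

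Set against other microRNA genes, the family took places 1, 2 and 4 by its strongest pooled peak. Genes within 2 kb of each other were counted as 1 locus, which gave 3 loci of the family and 211 others, of which 38 (18.0%) had an IDR peak. The strongest pooled value at those 38 loci ranged from 130 to 487 with a median of 193. Place 3 was held by mir-237, a member of the lin-4 family, with 487. The summit of that peak was 2043 bp downstream of the annotated 5′ end of mir-237, so it is not at the gene itself. Because the genes were chosen with these values known, this order is a description.

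**Figure D3:**
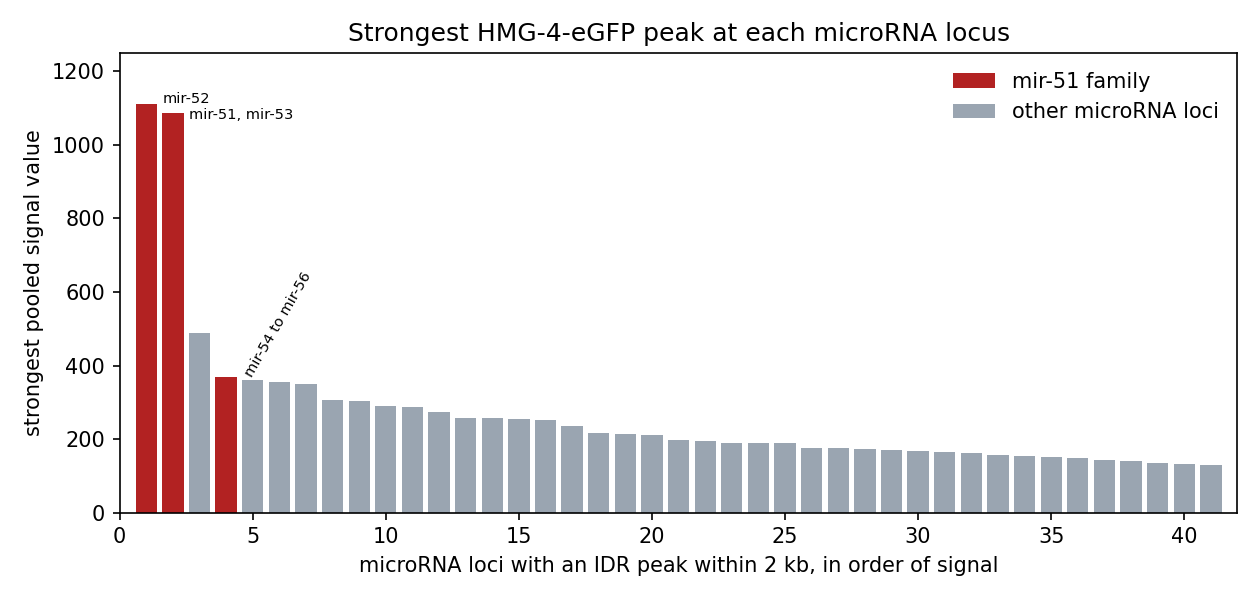
Strongest pooled signal value (bars, authors' unit, axis from 0) at each of the 41 microRNA loci with an IDR peak within 2 kb, in order of value, with the mir-51 family in red and the other 38 loci in grey. The 2 family loci on chromosome IV stand at 1112 and 1086, the X locus at 368, and the highest other locus at 487.

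Likeness was measured as the Euclidean distance between log10 ranks in the replicate 1, replicate 2 and pooled lists, over the 108 other microRNA loci with a peak in all 3. The closest to mir-52 and to mir-51 and mir-53 was mir-237, at ranks 41, 77 and 58, a distance of 2.46 and 2.01. It was followed at both by the locus of mir-2212 and mir-1819 and by mir-81. The X locus had nearer neighbours, namely mir-2212 and mir-1819 at 0.155, with ranks 171, 197 and 164, the locus of mir-1018, mir-4925, mir-4923b, mir-4923a and mir-4921 at 0.313, and mir-81 at 0.407. This likeness is one of rank only, since the IDR summits of these other loci lay well downstream of the precursor 5′ ends. The distance was 2043 bp at mir-237, 2017 at mir-2212, 1891 at mir-1819 and 1590 at mir-81. At the mir-1018 locus it ran from 875 bp at mir-4921 to 1396 bp at mir-1018. The mir-35 family, mir-35 to mir-42, the other large embryonic family, also had an IDR peak at all 8 of its genes. Its strongest pooled values were 255 at mir-42 and 236 at the cluster of mir-35 to mir-41, below those at all 3 loci of the mir-51 family.

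The number of IDR entries per gene also varied within the family. The genes mir-54, mir-55 and mir-56 had 4 each, and mir-51, mir-52 and mir-53 had 2 each. Of the other 255 microRNA genes, 23 (9.02%) had at least 2, as did 1009 (2.15%) of all annotated genes, and the only one with 4 was mir-55b, which shares the X peaks. Over all annotated genes, 57 (0.122%) had at least 4.

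The nearest summits lay within 100 bp of the precursor 5′ ends at the genes on chromosome IV, but not at those on X. Such a close summit was also present at 9 of the 59 other microRNA genes with an IDR peak. The nearest IDR summit was 12 bp upstream at mir-53, 31 bp upstream at mir-51 and 79 bp downstream at mir-52. In the X cluster it was 279 bp upstream at mir-54, 449 bp upstream at mir-55 and 331 bp downstream at mir-56. The median distance was 179 bp over the 6 genes, which share summits, and 391 bp over the 59 other microRNA genes with an IDR peak. All 6 genes had an IDR summit within 500 bp of the 5′ end, as did 31 (12.2%) of the other 255 microRNA genes and 4.38% of all annotated genes. The window that chose the peaks also limits this distance, and the difference was not tested.

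**Figure D4:**
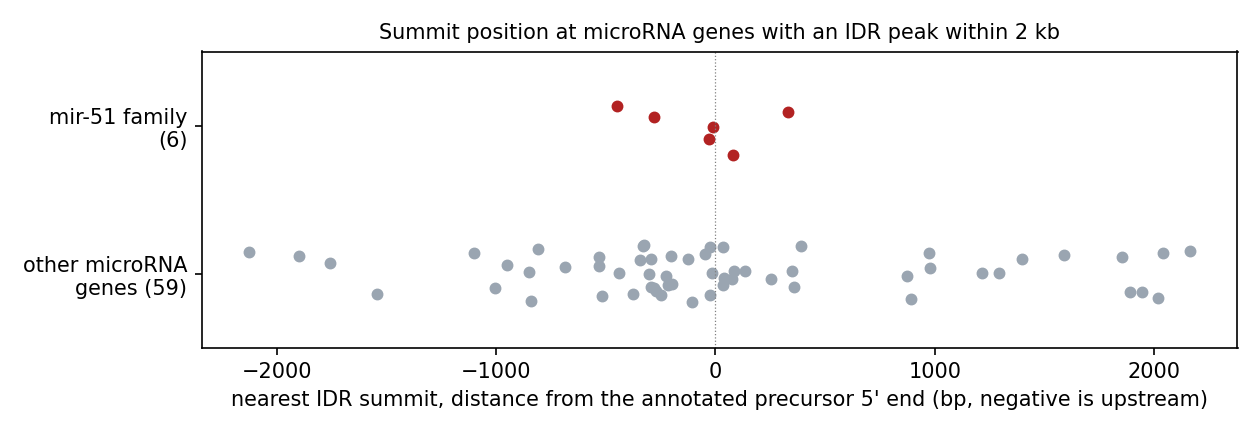
Signed distance in bp (horizontal axis, negative is upstream) from the annotated 5′ end of each microRNA precursor to its nearest IDR summit, for the 6 genes of the mir-51 family (red) and the 59 other microRNA genes with an IDR peak within 2 kb (grey). Vertical scatter within a row only separates points. The family's distances run from 449 bp upstream to 331 bp downstream.

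Other annotated genes lie close enough to share these peaks, and the assignment of a peak to the microRNA gene was not tested. Within 2 kb of the 6 genes, the annotation holds 9 other non-coding RNA genes, 8 piRNA genes and 3 protein-coding genes. The mir-51 summit falls in F36H1.17, an unclassified non-coding RNA gene of 89 bp that lies 18 bp upstream of mir-51 on the same strand. The protein-coding gene alh-3, which encodes an aldehyde dehydrogenase family member, ends 142 bp from mir-51 on the opposite strand. Another, hrg-5, of the heme-responsive gene family, lies 597 bp from mir-53. At mir-52, the non-coding gene WBGene00199919 overlaps the precursor in antisense and has its 5′ end 3 bp from the main summit, and WBGene00195705 ends 3 bp upstream of the precursor on the same strand. All 8 piRNA genes are at this locus. At X, F09A5.11, on the strand of the microRNAs and 118 bp upstream of mir-54, has its 5′ end 102 bp from the summit at 13145373.

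Replicate 2 listed a peak near mir-52 that neither replicate 1 nor the pooled list has. It spans 177 bp, chromosome IV 14032759 to 14032935, over part of the non-coding gene WBGene00198798, with a signal value of 122 and rank 448. At mir-51, replicate 2 listed a weaker summit in the main interval with 125 (rank 420), and replicate 1 one with 56.3 (rank 4624). Both were upstream of the precursor, and neither is in the IDR list.

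Short sequence motifs were looked for on both strands in 300 bases around each of the 8 IDR summits, with all 2137 IDR summits beside them. A match describes letters and is not evidence of a bound factor. CTCCGCCC, a motif known from upstream regions of worm microRNA genes, was in 1 of the 8 windows, that of the X summit at 13145373, and in 90 (4.21%) of all IDR windows. The match at X 13145395 to 13145402 was 308 bp upstream of mir-54, on its strand, and 26 bp from the summit. On chromosome IV the motif also occurred at 14033550 to 14033557, 458 bp upstream of mir-52 and on its strand, but outside the IDR peak and 533 bp from its main summit. Both are printed with 10 bases on each side and the motif in capitals.
upstream of mir-54: gaggaaaaatCTCCGCCCctaaacgtac
upstream of mir-52: acaccaatctCTCCGCCCcgtctcttcc

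Of the other motifs, GAGAGA was in 4 of 8 windows and in 1129 (52.8%) of all, and the mir-53 window held 7 matches, the nearest 18 bp upstream of the precursor, of which those in the CT run printed above overlap. TATAAA was in 1 of 8 and in 324 (15.2%) of all, and its match was 6 bp upstream of mir-53, read on the strand of the gene. TTTCAG was in 4 of 8 and in 427 (19.98%) of all, but the windows of the 2 mir-52 summits overlap and hold the same 2 matches. CCCGCC, which shares letters with CTCCGCCC without either containing the other, was in 2 of 8 and in 414 (19.4%) of all.

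The motif GGTTCGA was added after the data were seen. It is the core of the B box, an internal promoter element of tRNA genes that RNA polymerase III factors recognise. It was in 1 of the 8 windows, that of the mir-51 peak, and in 173 (8.10%) of all. Of the 188 IDR summits within 500 bp of a tRNA gene's 5′ end, 117 (62.2%) had it, against 56 (2.87%) of the other 1949. Because tRNA genes contain the motif, this contrast was bound to arise, and it is no test of the match at mir-51. The match at chromosome IV 11026158 to 11026164 lies in F36H1.17, 18 bp from the summit. That gene is printed with the motif in capitals.
F36H1.17: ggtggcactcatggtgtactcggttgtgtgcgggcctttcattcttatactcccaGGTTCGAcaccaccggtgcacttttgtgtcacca

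Base composition differed among the family's peaks. In 300 bases around the summit, GC content was 52.0% at mir-51, 41.0% at mir-53, 39.3% at the mir-52 main summit and 42.3 to 58.3% at the 4 peaks on X. The median over all IDR windows was 46.7%, with 5% below 35.7% and 5% above 56.1%, so the strongest peaks of the family lay on either side of the median. None of the 7 intervals contained a stretch of 36 or of 50 bases that occurs elsewhere in the nuclear genome.

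Genes of the microRNA pathway were examined from a list of 21, of which 20 were matched by name. An IDR peak lay within 2 kb of 13 of the 20 (65.0%), against 13.3% of all protein-coding genes, without adjustment for gene length. Only vig-1, a component of the silencing complex, had a summit within 500 bp of its 5′ end, against 4.38% of protein-coding genes. Other genes share many of these peaks, and their assignment was not tested. Counting the gene itself, the strongest peak was within 2 kb of 1 gene at ain-1 and lin-28 and of 6 at vig-1. Its summit was 10913 bp from the 5′ end at xrn-1 and 9658 bp at lin-41. The lin-41 peak was also 108 bp upstream of a microRNA gene outside the family. Among the effectors, the peak at ain-1, which encodes a GW182 protein that joins Argonaute to its effectors, was strongest, with 288 in replicate 1, 248 in replicate 2 and 533 in the pooled list. The Argonaute gene alg-1 had 160 in replicate 1, 145 in replicate 2 and 315 in the pooled list. The 7 matched genes without an IDR peak were the Argonaute gene alg-2, the processing genes drsh-1, pash-1 and dcr-1, which encode Drosha, its partner and Dicer, and rde-4, tsn-1 and lin-14. Values at the other genes with an IDR peak ran from 137 at xrn-1 to 351 at nhl-2. The gene cdh-4, a Fat-like cadherin known as a target of the family in pharynx attachment, had a peak with 84.0 in replicate 1, 68.9 in replicate 2 and 152 in the pooled list. In each list the strongest family peak, at mir-51 or mir-52, was above every gene of this list.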

How the data were processed

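Tagged HMG-4 was mapped by ChIP-seq in early embryos, and per the labels the group has 2 biological replicates. The authors deposited 4 peak lists on ce11: each replicate, the pooled data, and an IDR-thresholded list. The deposited signal value per peak is the authors' caller's measure, in a unit that is not stated. The deposited −log10 q-value was read for description only, and the deposited summit offset gave summit positions. For the aligner, peak caller, versions, IDR cut-off and depth, no information was given in the sources used here.

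Peaks were assigned to genes of Ensembl release 115 by edge distance (2 kb) with Python 3.11.15, numpy 2.4.6 and pandas 2.3.3. Mature microRNAs came from RefSeq. Summits in different lists were matched by overlap of intervals, taking the entry with the closest summit. No statistical test was made, since the genes, though selected by name, were selected with these peaks known. The counting functions were tested on simulated data. Alternatives varied the window (1 and 5 kb), the summit or midpoint, the list, the motif window (600 bases) and each replicate left out.

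The genes, the pathway list, the motifs and the rule for named genes were chosen with earlier results of these data known. The rule names the 6 genes, genes annotated within 2 kb of them, the 3 microRNA loci closest in rank to each locus, pathway genes with an IDR peak, and the mir-35 family. The pathway genes without an IDR peak were named outside it, after their values were seen. Intervals listed more than once (11 in the IDR list) were kept as separate summits. The replicates' lists shared 0 entries of equal interval and value.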

Additional observations from a re-analysis of the deposited data

How the results depend on the processing

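All 6 genes kept an IDR peak with 1 kb, 5 kb, a summit limit of 500 bp from the 5′ end, the summit in place of the edge, and the stronger 1068 IDR peaks. With a replicate left out there is no IDR list, and the 2137 strongest peaks of the other took its place, with a peak at all 6. For mir-53 the count rested on the mir-51 peak among the stronger 1068, since its own pooled rank was 1098. It did so in replicate 1 too, which lists no mir-53 peak. Shares of other genes were not computed for the 1-kb, 5-kb, stronger 1068 and left-out settings, so these counts have no background. With a 1-kb window or a summit within 500 bp, 5 of the 6 genes had a peak in both replicates. Taking the summit nearest a 5′ end in place of the strongest peak gave 173 in place of 1086 at mir-51 and mir-53, because that summit is the mir-53 peak, and 331 in place of 368 on X. With each replicate left out, the rank of the strongest peak was 3 to 5 at mir-51 and mir-53, 1 to 5 at mir-52 and 142 to 147 on X, against 151 in the pooled list. Nearest-summit positions under the same settings ran from -19 to 11 bp at mir-51, -10 to 1345 at mir-53, 72 to 84 at mir-52, -279 to -195 at mir-54, -365 to 241 at mir-55 and 104 to 326 at mir-56. The value of 1345 comes from replicate 1, which has no mir-53 peak, so its nearest summit is at mir-51. With peak midpoints, mir-51 moved to 10 and mir-55 to 426. The TATAAA count was 4 of 8 both in 600 bases around the summit and over the whole peak. The shares of all IDR entries also rose, to 37.8% and 23.4%. Over the whole peak, the 2 mir-52 entries are the same interval, so a match there would count 2 times. Of the pathway genes, 13 had an IDR peak within 2 kb, 1 had a summit within 500 bp and 8 had one of the stronger 1068 peaks. The share of protein-coding genes with one of the stronger 1068 was not computed, so the count of 8 has no background. In all, 51 values stayed within their spread or 1.5 times the count, and 15 moved. That spread is the SD of the 2 replicates, which also supply the values with a replicate left out, so the tally does not measure stability. For the mir-53 position the SD was 958 bp, because replicate 1 has no mir-53 peak. No paired analysis was possible because there is only 1 group. With 2 replicates, 1 group and unknown depth, no spread between conditions and no counting error can be given, and signal values rest on the authors' normalization.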

Other observations

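Of the 10 runs of at least 4 IDR summits with gaps up to 1500 bp, 2 were at microRNA genes: the one at mir-54, mir-55 and mir-56, which spans 2852 bp, and one at the mir-35 to mir-41 cluster on chromosome II, which spans 3165 bp. The other 8 had no microRNA gene within 2 kb. The 10 runs hold 44 (2.06%) of the 2137 IDR entries. Beyond the 4 IDR summits on X, the pooled list has a weaker summit 1057 bp upstream (signal value 92.1, rank 5077) and another 1819 bp downstream (120, rank 2596), neither in the IDR list. The downstream peak covers the annotated 5′ end of the protein-coding gene F09A5.3. Replicate 2 lists 2 further upstream summits, 935 and 1004 bp apart from their neighbours, with values of 28.2 and 30.7. It also lists a further downstream summit, 743 bp from its neighbour, with a value of 26.3.

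The deposited −log10 q-value was 2.95, the highest in the IDR list, for 6 of the family's 8 entries, 2.86 for the mir-53 peak and 2.91 for the most upstream peak on X. Those 6 entries, at pooled ranks from 3 to 394, are tied at this value, so it does not order them. The share of all IDR entries tied at it was not counted.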
